A study of Danio rerio with 12 samples.

Results

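Transcripts of sterol and fatty acid metabolism were followed in the zebrafish pineal gland, the light-sensitive, melatonin-producing gland on top of the brain, over 1 circadian cycle with and without a light pulse. The genes were chosen by name: probe sets with exactly 1 platform gene symbol that begins with one of 23 prefixes of lipid genes (such as hmgc, insig, elovl, acad, cpt1, fabp, osbpl and acsl), or that is slc25a20, were taken when their mean deposited signal over the 12 arrays was 58 or more. This gave 38 probe sets for 35 genes, out of 15502 probe sets that are not array controls. Before the signal minimum 61 probe sets for 47 genes matched; 12 genes, among them cyp51, scd, cpt1b, fabp2 and fabp10a, had no probe set above it. At the minimum, the nearest probe set inside was that of elovl5 (mean signal 67.9) and the nearest outside was a further probe set of acsl1a (56.2). For 5 prefixes (sqle, idi1, srebf, fasn and acox) no probe set matched, and genes under those names are not analysed here.

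All 12 arrays came from adult fish of both sexes, 0.5 to 1.5 years old, of the transgenic strain Tg(aanat2:EGFP)Y8, in which control regions of aanat2 drive a green fluorescent protein in the pineal; dark controls carried the transgene too. Fish were reared in 12 h of light and 12 h of darkness, and lights stayed off after the evening that preceded sampling. At each of CT2, CT6, CT10, CT14, CT18 and CT22 (circadian time in hours from subjective dawn), 1 pool of 12 glands came from fish left in constant darkness and 1 pool was exposed to light (12 W/m2 for 1 h) directly before dissection, with 1 array per pool. Each value is an Affymetrix MAS5 signal, a linear intensity per probe set. In pooled tissue, fewer cells of a type and less RNA per cell cannot be told apart.

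Sterol and fatty acid supply serves membranes, signalling lipids and energy. Cells make cholesterol from acetyl-CoA through the mevalonate pathway, which Insig proteins restrain when sterols are plentiful by holding the SREBP activators in the endoplasmic reticulum. Fatty acids are built from malonyl-CoA, lengthened by elongases and desaturated, or are activated to acyl-CoA, carried into mitochondria as carnitine esters and oxidised. Photoreceptor-like cells, which the pineal of fish contains, are rich in very long and polyunsaturated fatty acids in their membranes.

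The added control transcripts of bacteria and phage (18 probe sets) lay lower, at a mean log2 signal of 9.53 to 9.78, on the dark arrays of CT2 to CT18 than on the dark array of CT22 and the 6 light arrays (10.27 to 11.18). Outside CT22, spike-in class and light cannot be told apart. The CT22 difference, the only pair within 1 class, is therefore given for the members as a set and beside some of the single results. Of the listed markers of other cell types, all 6 measured skeletal muscle genes and all 8 leukocyte genes had positive light differences (medians 0.53 and 0.35 log2). The muscle list deviated from its mean by -0.79 to 0.13 log2 in dark and 0.07 to 0.87 in light pools, with summed signals of 306 to 606 and of 619.8 to 1203. For 9 of its 15 genes no probe set with 1 symbol was kept, so they may be weak or absent from the platform. Leukocyte sums ran from 2300.3 to 5029 and from 2511 to 6670.4. Of 15 measured skin and epithelium genes (18 listed), 14 had positive differences (median 0.24), with deviations of -0.93 to 0.30 in dark and -0.50 to 0.89 in light pools and sums of 2092 to 7321 and 2691 to 10902. Other lists were mixed or mostly lower in light. Positive differences were seen in 3 of 11 brain neuron genes (median -0.10), 2 of 7 red blood cell genes (-0.07, cahz called lower), 3 of 6 oligodendrocyte genes (-0.05) and 1 of 3 endothelial genes (-0.29). The dark pool of CT18 stood apart in brain neuron (1.12 log2) and oligodendrocyte (0.79) markers. That pool was also the lowest of the 12 in pineal photoreceptor (-0.41, summed signal 20453) and skin (-0.93) markers. It was the highest in glia markers (0.32) and in the fat cell marker cebpa (1.18). The CT22 pair differed in makeup too: light minus dark was 0.74 for the neuron list, 0.67 for oligodendrocyte, 0.25 for muscle and -0.06 for skin. It was -0.31 for pineal photoreceptor, -0.22 for red blood cell, -0.47 for endothelial, 0.14 for leukocyte and 0.11 for glia. The fat cell list (1 gene measured) gave -0.55 and the liver list (2 genes) -0.78. Of 9 fat cell markers only cebpa had a kept probe set with 1 symbol, and of 10 liver markers 2 did. The part of any of these cell types in the results below was not tested. Of 12 pineal photoreceptor markers, 8 were measured, and 6 of the 8 were higher in light (median 0.22 log2). Their summed signals were 20453 to 36354 over the 12 arrays. Among them were exorh, the pineal opsin, and aanat2, of melatonin synthesis. For saga, sagb, asmt and asmt2 no probe set with 1 symbol was kept, so they may be weak or absent from the platform.

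Pools exposed to light had a higher level of osbpl7, of the oxysterol-binding protein family that moves sterols and other lipids between membranes, and a lower level of slc25a20, the carrier that takes acylcarnitines across the inner mitochondrial membrane. Those were the only calls, at an adjusted p under 0.05 by limma with the time point as a block, among the 37 probe sets that passed the filter on low signal (34 genes; elovl5 did not pass). Over all 9301 probe sets tested, 2.31% were called, 1.58% higher and 0.731% lower, so 2 of 37 is near the background. The signs were mixed: 20 differences were positive and 17 negative, with a median of 0.01 log2 against 0.02 over all. At CT22 alone 13 of the 37 were positive, with a median of -0.07 log2, against 4413 of 9301 and -0.03 over all. In 6 of 37 the sign was the same at all 6 times, against 10.3% of all probe sets, and in 0 of 37 were the dark and light ranges apart, against 1.23%.

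**Figure D1:**
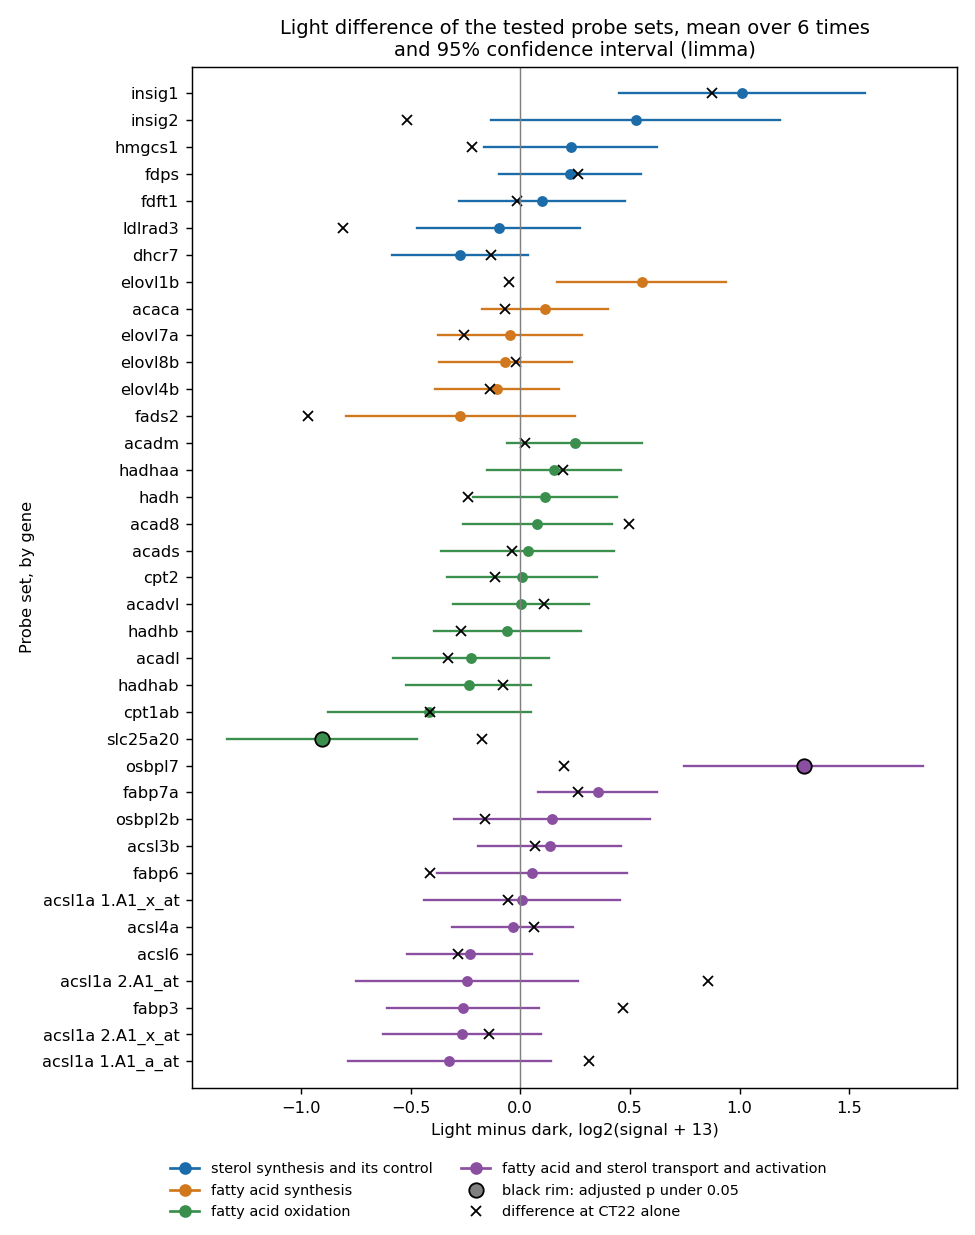
Mean light minus dark difference on the log2(signal + 13) scale for the 37 tested probe sets, by role, with the 95% confidence interval from limma (6 time points); crosses mark the difference at CT22 alone. Only osbpl7 (1.29) and slc25a20 (-0.90) have a black rim for an adjusted p under 0.05, and for both the CT22 value lies close to 0.

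Osbpl7 was read at 67.7, 59.8, 22.7, 67.4, 73.6 and 180.1 in the dark pools from CT2 to CT22 and at 222, 115, 191, 176, 224 and 209 after light. Each light pool was above the first 5 dark pools, whereas the dark pool of CT22 lay within the light range. The light difference was 1.29 ± 0.25 log2 (SE, n = 6 pairs, 2.45-fold higher on average, adjusted p = 0.0215, range over the alternatives 0.00655 to 0.990). It was positive at 6 of 6 times, from 2.51 at CT10 to 0.20 at CT22. Within the 7 arrays of the higher spike-in class it was 0.28 ± 0.35, and 0.41 ± 0.40 in a model that holds the class. In both, the light term rests on 1 dark array, that of CT22, so they cannot separate light from that pool. With the spike-in level beside the time-point block it was 0.82 ± 0.44 and was not called (adjusted p = 0.556). Leaving out CT2, CT10, CT14 or CT18 also ended the call (adjusted p 0.0574 to 0.0668). Another osbpl7 probe set, which lay under the signal minimum, differed by 0.68. Most matching probe sets under that minimum were higher in light, such as those of acad9 (0.70) and elovl6l (0.59). The exceptions were probe sets of cpt2 (-0.20), acad11 (-0.03) and cyp51 (-0.06), so a positive value there is not particular to osbpl7. Osbpl2b, of the same family, was read at 54.1 to 109 in dark and 51.9 to 99.9 in light pools (0.15 ± 0.21 log2).

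Slc25a20 was read at 625, 985, 774, 749, 541 and 229.6 in the dark and at 303, 243, 393, 426, 375 and 202 after light. As for osbpl7, the dark pool of CT22 was the exception, since the other 5 dark pools were all above the 6 light pools. The level was 1.87-fold lower in light pools on average (-0.90 ± 0.20 log2, SE, n = 6 pairs, adjusted p = 0.0381, range over the alternatives 0.0178 to 0.995), at 6 of 6 times, with -1.96 at CT6 and -0.18 at CT22. In the 2 fits that hold the class, the light term again rests on the dark array of CT22 alone, so they are not independent. The difference was 0.11 ± 0.34 log2 with class as a term and 0.14 ± 0.34 within the higher class, so the sign turned. With the spike-in level beside the time-point block it stayed negative, at -0.70 ± 0.37, and was not called (adjusted p = 0.553). The call was also lost without the time-point block (adjusted p = 0.124), with quantile normalization (0.0596) and without CT2, CT6, CT10, CT14 or CT18 (adjusted p 0.0574 to 0.135).

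**Figure D2:**
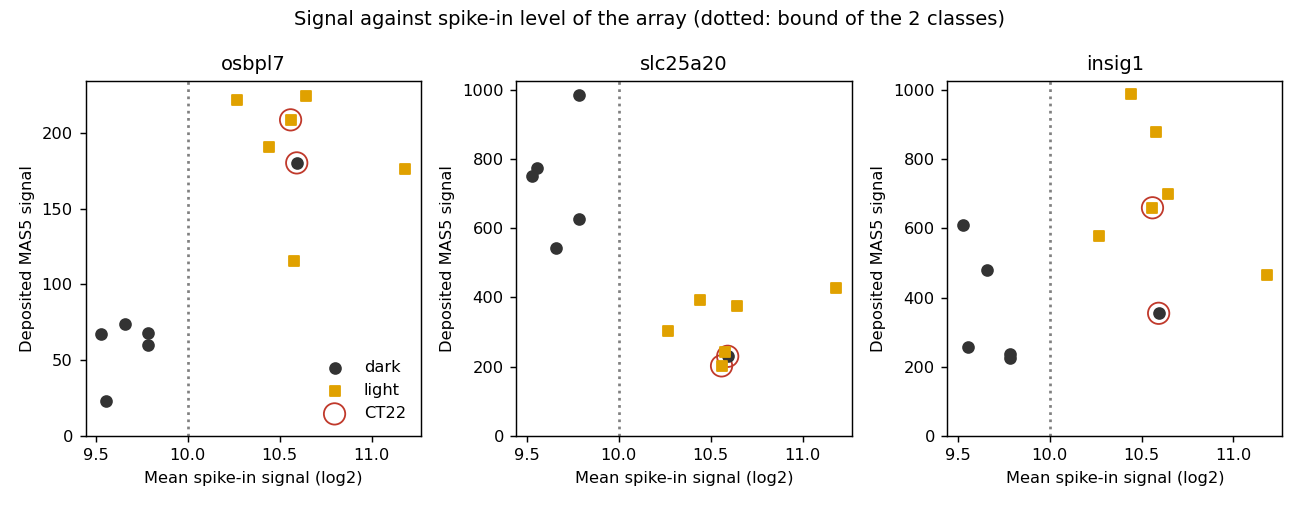
Deposited MAS5 signal of osbpl7, slc25a20 and insig1 (y axes) against the mean log2 spike-in signal of each of the 12 arrays (x axis), with dark arrays as circles, light arrays as squares and both CT22 arrays ringed in red. For osbpl7 (180.1) and slc25a20 (229.6) the dark CT22 array lies among the light arrays, and for insig1 (354) it lies below them.

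In the sterol group, insig1, whose product holds back sterol synthesis, was read at 225, 236 and 256 in the dark pools of subjective day (CT2, CT6 and CT10) and at 611, 479 and 354 in those of subjective night (CT14, CT18 and CT22). After light it was at 579, 880.2 and 989 in subjective day and at 464, 699 and 659.9 in subjective night. Light pools were thus the higher of the pair at every time but CT14, where the dark pool was the higher. The mean light difference was 1.01 ± 0.26 log2 (SE, n = 6 pairs, 95% interval 0.45 to 1.57), which did not pass the threshold (adjusted p = 0.0664, range over the alternatives 0.0226 to 0.990). Without CT14, the pair of opposite sign, it was 1.29 ± 0.21 and was called (adjusted p = 0.0226 by limma). Without any other 1 time point it was 0.84 to 1.11 and was not called (adjusted p 0.0691 to 0.228). At CT22, within 1 spike-in class, it was 0.87. With class as a term it was 0.85 ± 0.49 and within the higher class 0.74 ± 0.38, both resting on the dark array of CT22 alone. With spike-in level it was 1.62 ± 0.44 and was not called (adjusted p = 0.272). Further insig1 probe sets under the signal minimum, at mean signals of 49.7 and 45.3, differed by 0.31 and 1.48. Positive differences were the rule among the matching probe sets under that minimum.

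The other 6 genes of the sterol group gave 0 calls. Insig2, the paralogue of insig1, was read at 20.7 to 119.5 (median 51.9) in dark and 49.9 to 118 (median 84.6) in light pools. Its difference was 0.53 ± 0.30 log2 on average and -0.52 at CT22. Hmgcs1, whose enzyme makes HMG-CoA at the head of the mevalonate pathway, was at 205, 311 and 386 in the dark pools of subjective day against 360.1, 419 and 628 after light, and at 352, 186 and 301 against 245, 220.3 and 257 in subjective night. Its mean difference was 0.23 ± 0.18 log2 (adjusted p = 0.537). The farnesyl diphosphate synthase gene fdps (0.23 ± 0.15) was higher in light at 5 times and the squalene synthase gene fdft1 (0.10 ± 0.17) at 3. For dhcr7, which acts in the final step to cholesterol, the signal was lower at 5 of 6 times (medians 495 in dark and 374 in light, -0.27 ± 0.14, 95% interval -0.58 to 0.04). Ldlrad3 matched the ldlr prefix but encodes a protein with LDL-receptor domains and not the receptor itself (-0.10 ± 0.17, CT22 -0.81).

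Among the fatty acid synthesis genes 0 of 6 tested probe sets were called for light, 2 with positive and 4 with negative differences. Elovl1b, an elongase of saturated and monounsaturated chains in mammals, was read at 269 to 335 (median 293) in dark and 297 to 633 (median 425) in light pools. The ranges overlapped through the light pool of CT22, at 297. Its difference of 0.55 ± 0.18 log2 did not pass (adjusted p = 0.132), was positive at 5 of 6 times and was -0.05 at CT22. Elovl5, which lengthens polyunsaturated chains, was at 16.4 to 83.1 in dark and 34.8 to 152 in light pools (mean difference 0.84 log2, not tested because it lay under the filter). With no filter on low values, the median difference over all probe sets was 0.09 log2, against 0.02 with it. Acaca, acetyl-CoA carboxylase, which makes malonyl-CoA, differed by 0.11 ± 0.13 (95% interval -0.17 to 0.40). For elovl4b, whose mammalian counterpart makes very long chains in photoreceptors, the difference was -0.11 ± 0.13 (interval -0.39 to 0.18), for elovl7a -0.05 ± 0.15, and for elovl8b -0.07 ± 0.14. Fads2, the desaturase of polyunsaturated fatty acids, went both ways: in subjective day 71.2, 102 and 49.5 in dark stood against 88.2, 105 and 75.0 after light, and in subjective night 149.8, 142 and 80.5 against 58.6, 114 and 34.9.

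Of the 12 oxidation genes slc25a20 alone was called for light; the other 11 had differences between -0.41 and 0.25 log2. Cpt1ab, carnitine palmitoyltransferase 1, whose enzyme forms the acylcarnitines that slc25a20 carries, was at 218, 327, 314, 333, 162 and 179 in dark and at 309, 297, 221, 109, 116 and 131 after light. Light was higher at CT2 and lower at the other 5 times, most at CT14 (-1.50 log2). Its mean difference was -0.41 ± 0.21 log2 (adjusted p = 0.337) and -0.41 at CT22. Cpt2, which turns acylcarnitine back to acyl-CoA inside the mitochondrion, differed by 0.01 ± 0.16. The acyl-CoA dehydrogenase genes acadm, acadl, acadvl and acads, which take the first oxidation step on chains of different length, had differences of 0.25 ± 0.14, -0.22 ± 0.16, 0.00 ± 0.14 and 0.03 ± 0.18. Acadm was higher in light at 6 of 6 times, by 0.02 at CT22. Acad8, whose human counterpart acts in valine breakdown, differed by 0.08 ± 0.16 (CT22 0.50). For the subunits of the trifunctional protein the differences were 0.15 ± 0.14 (hadhaa), -0.24 ± 0.13 (hadhab, lower at 6 of 6 times) and -0.06 ± 0.15 (hadhb), and for the short-chain dehydrogenase gene hadh 0.11 ± 0.15.

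Among the 12 probe sets of transport and activation, fabp7a, the brain-type fatty acid-binding protein of radial glia, was read at 440.3 to 645 (median 592) in dark and 637 to 810.1 (median 769) in light pools. It was higher in light at 6 of 6 times (0.35 ± 0.13 log2, adjusted p = 0.174, CT22 0.26), and only the lowest light pool and the highest dark pool overlapped. The glial marker list, which holds fabp7a, had 4 of 8 genes higher in light (median 0.02). Fabp3, the heart and muscle form, was at 585 to 1057 in dark and 446 to 817 in light pools (-0.26 ± 0.16, CT22 0.47). Its highest value was in the dark pool of CT18, which stood apart in neuron and oligodendrocyte markers. Fabp6, the bile acid-binding form, differed by 0.05 ± 0.20 (CT22 -0.41). The acyl-CoA synthetase genes acsl3b, acsl4a and acsl6, which activate fatty acids, differed by 0.13 ± 0.15, -0.03 ± 0.13 and -0.23 ± 0.13. Acsl1a had 4 member probe sets, which may share target sequence and are not independent. Their differences were -0.32 ± 0.21, 0.01 ± 0.21, -0.24 ± 0.23 and -0.27 ± 0.16 (CT22 0.31, -0.06, 0.85 and -0.14).

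**Figure D3:**
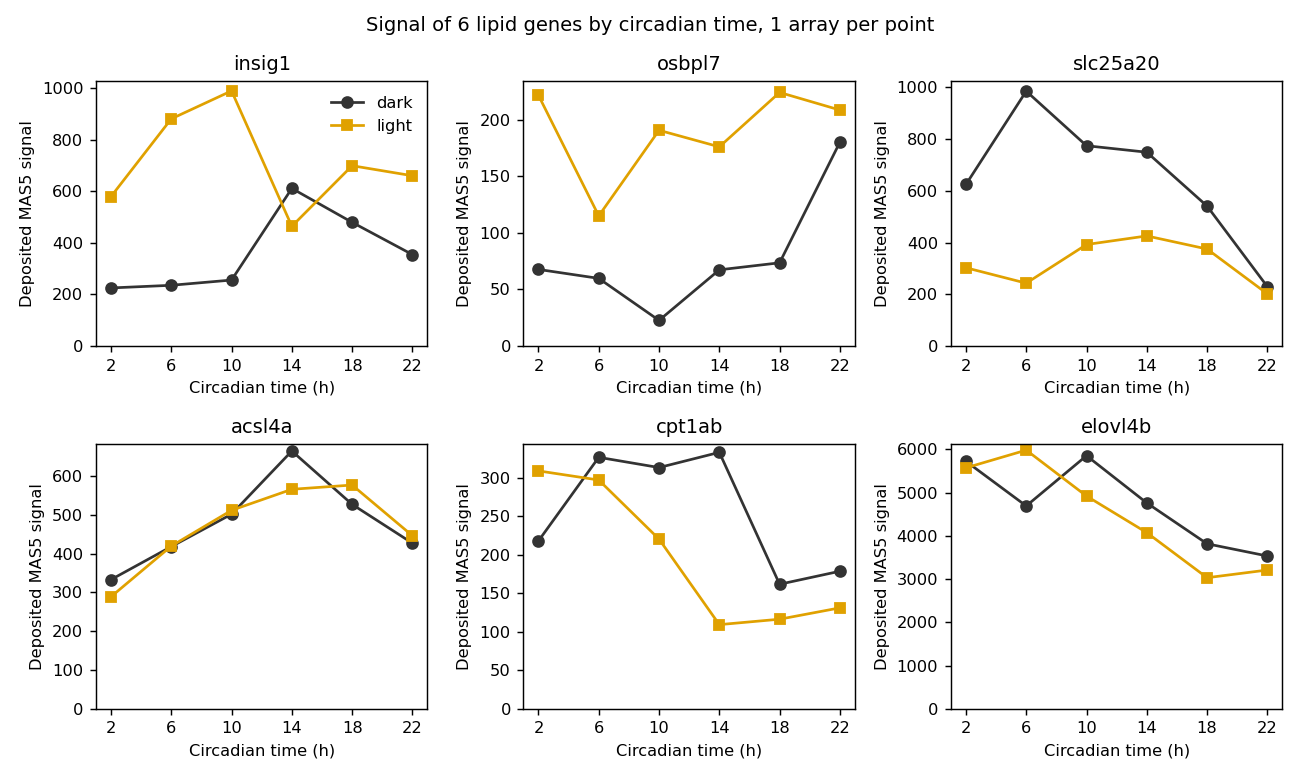
Deposited MAS5 signal (y axes, from 0) of insig1, osbpl7, slc25a20, acsl4a, cpt1ab and elovl4b by circadian time in hours (x axes), with dark pools as circles and light pools as squares, 1 array per point. The acsl4a curves run together from 333 and 289 at CT2 to 665 and 566 at CT14, and the insig1 curves cross at CT14.

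Over the circadian cycle acsl4a, whose mammalian enzyme prefers arachidonic acid, was the only member called by the F-test of a 24 h cosine and sine beside the light term. Its signal was 333, 418, 502, 665, 527 and 427 from CT2 to CT22 in the dark and 289, 419.8, 512, 566, 577 and 446 after light. Both series were lowest at CT2 and highest at CT14 or CT18. The fitted amplitude was 0.42 ± 0.08 log2 (adjusted p = 0.0394 by limma, range over the alternatives 0.0368 to 0.427), with a peak at CT14.5. From the dark arrays alone the amplitude was 0.42 with a peak at CT14.3, and from the light arrays alone 0.43 with a peak at CT14.7, neither of them called by itself. The call was lost when any 1 time point was left out (amplitude 0.33 to 0.47, adjusted p 0.0682 to 0.269), with quantile normalization (0.0504) and with spike-in class as a term (0.0523). Of all probe sets tested, 1.98% were called for time of day, against 1 of 37 here.

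At an unadjusted p under 0.05, 12 of the 37 probe sets (32.4%) varied with time of day, against 15.0% of all probe sets; the difference of these shares was not tested, and 11 of the 12 did not pass the adjustment. Fitted peaks of 10 of the 12 fell in subjective day, against 53.7% of all probe sets at that bound. By time of peak they were acaca (amplitude 0.32 log2, CT1.3), acadm (0.36, CT1.7), fabp6 (0.62, CT2.4), elovl8b (0.39, CT4.4), hadhaa (0.35, CT5.6), cpt1ab (0.57, CT6.6), elovl4b (0.39, CT6.9), hmgcs1 (0.46, CT8.3), hadhab (0.39, CT9.5) and slc25a20 (0.52, CT10.5), then acsl4a in early and osbpl7 (0.56, CT21.2) in late subjective night. In the dark series osbpl7 was at 180.1 at CT22 against 22.7 to 73.6 before, and slc25a20 at 229.6 against 541 to 985. That array is the only dark one of the higher spike-in class, so time of day and class cannot be told apart there. Amplitudes were 0.86 log2 in dark and 0.29 in light for osbpl7, and 0.77 and 0.42 for slc25a20. Of the oxidation genes 5 of 12 and of the synthesis genes 3 of 6 were among the 12 probe sets, and of the 7 sterol genes hmgcs1 alone. Without any 1 time point the number stayed between 11 and 13, while that over all probe sets ran from 1053 to 1305, against 1398 with every time. It was 9 from the dark arrays alone and 6 from the light arrays alone, against 1537 and 992 over all probe sets. Skin and epithelium markers moved with time of day too: 6 of the 15 measured were called, krt5, krt91, cdh1, icn2 and cldni with peaks from CT9.3 to CT11.4 and krt18a.1 at CT18.4. Their summed signal was lowest in the dark pool of CT18 (2092) and highest in the light pool of CT10 (10902). In the other lists 1 pineal photoreceptor gene, opn1lw1, was called (amplitude 1.37 log2, CT7.3, adjusted p = 0.00176 by limma). So was 1 leukocyte gene, cd74a (0.62, CT10.6, adjusted p = 0.0487). In the brain neuron list 0 genes were called. Its deviations were -0.51 to -0.06 log2 in the pools of subjective day and -0.19 to 1.12 in those of subjective night. Those of the pineal photoreceptor list were -0.18 to 0.32 in day and -0.41 to 0.25 in night pools. The part of skin or of these other cells in the daily course of the lipid genes was not tested.

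**Figure D4:**
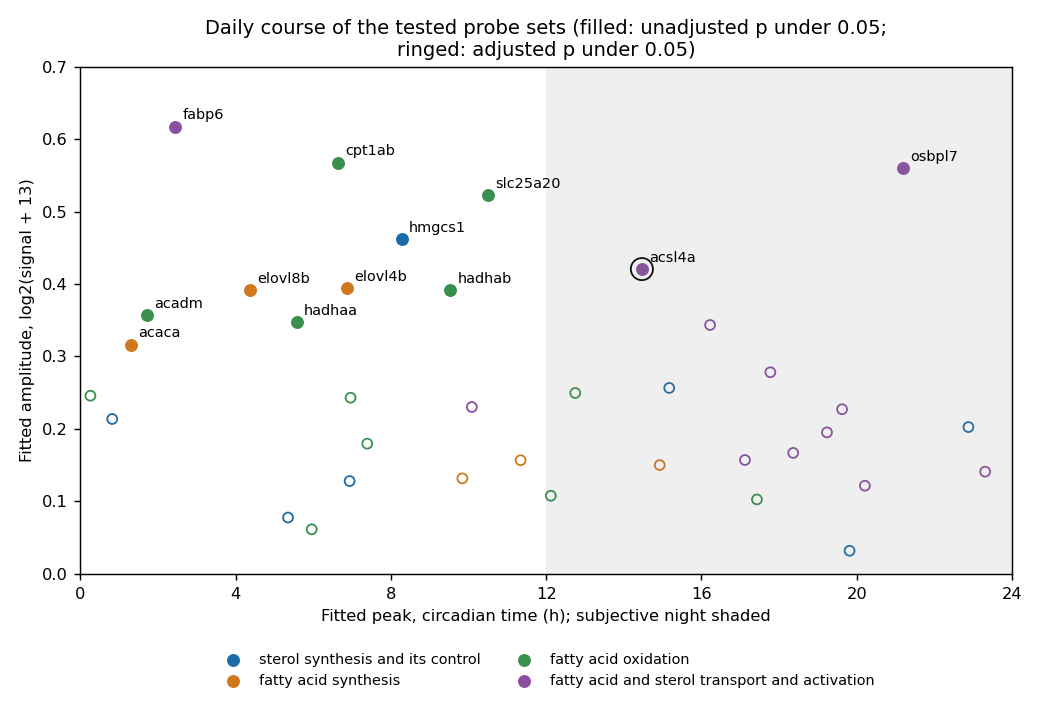
Fitted amplitude on the log2(signal + 13) scale (y axis) against the fitted peak in circadian hours (x axis) for the 37 tested probe sets, coloured by role, with subjective night shaded. Of the 12 filled points (unadjusted p under 0.05), 10 lie in subjective day, and acsl4a (0.42, CT14.5) is ringed for an adjusted p under 0.05.

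Elovl4b was read at 5725, 4692 and 5855 in the dark pools of subjective day and 4762, 3817 and 3534 in those of subjective night, and after light at 5574, 5984 and 4921 and at 4075, 3032 and 3210.2; the amplitude of 0.39 ± 0.09 did not pass (adjusted p = 0.0865). Each night pool but the dark one of CT14 was below every day pool. Fabp6 was lowest at CT14 in dark (26.1) and in light (46.7) and was at 139 and 95.6 at CT2 (amplitude 0.62 ± 0.15, adjusted p = 0.0925). Hadhaa and hadhab, which encode forms of the same subunit, had peaks at CT5.6 and CT9.5, with adjusted p of 0.130 and 0.0845. For acaca the peak came at CT1.4 in the dark and CT1.2 in the light series, whereas for slc25a20 it came at CT9.1 and CT13.2 and for cpt1ab at CT9.2 and CT5.0. Shifts of a peak were not tested by themselves, and each dark series holds the CT22 array, the only dark one of the higher spike-in class.

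Whether the light difference varied over the cycle was tested with light by cosine and sine terms and with light by subjective night. Neither test called a probe set: 0% of 9301 at the adjusted threshold in each, with 9.29% and 3.18% at an unadjusted p under 0.05, where the members numbered 3 (insig1, insig2 and cpt1ab) and 4 (insig1, hmgcs1, fads2 and slc25a20). For insig1 the light difference was 1.69 log2 in subjective day and 0.34 in subjective night, a change of -1.35 ± 0.36 (adjusted p = 1.00 by limma). The pools for hmgcs1 differed by 0.62 and -0.16 in day and night, those for fads2 by 0.27 and -0.81, and those for slc25a20 by -1.31 and -0.50. Every day pair crossed the spike-in classes, whereas the night pairs include CT22, within 1 class. The contrast of night and day is thus partly confounded with class. For slc25a20 the night differences were -0.80 at CT14, -0.51 at CT18 and -0.18 at CT22. For light against dark 17.5% of all probe sets reached an unadjusted p under 0.05, as did 5 of 37 members (insig1, elovl1b, fabp7a, osbpl7 and slc25a20).

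Of 88 further lipid genes listed by name, 37 had a probe set with 1 symbol above the filter. Of these, 19 had positive and 18 negative light differences (median 0.02 log2). Ucp2, an uncoupling protein of the inner mitochondrial membrane, was the only call for light, 1 of 37 against 2.31% of all probe sets. It was at 511 to 735 in dark and 754 to 1541 in light pools, without overlap, as were 1.23% of all probe sets. The difference was 0.80 ± 0.16 log2 (adjusted p = 0.0219 by limma, CT22 0.54). Its values in the alternative runs are not given here, and over all probe sets light calls fell from 215 to 8 with spike-in level beside the block. Next by p came angptl4, an inhibitor of lipoprotein lipase (0.65 ± 0.19, adjusted p = 0.0961 by limma, CT22 0.51). It was followed by etfa, an electron carrier of fatty acid oxidation (-0.44 ± 0.14, adjusted p = 0.130, CT22 -0.23). Then came msmo1, a methylsterol monooxygenase (0.55 ± 0.19, adjusted p = 0.169, CT22 1.14). For time of day 0 of the 37 were called and 8 reached an unadjusted p under 0.05 by limma, against 1.98% and 15.0% of all probe sets. Etfdh, which passes those electrons on, came nearest (0.60 ± 0.13, CT8.8, adjusted p = 0.0521).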

How the data were processed

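The deposited table held 1 linear intensity, a MAS5 signal, per probe set and array; GCOS and MAS5 are named, without versions, per the submitters' processing notes, and a genome build is not given in the sources used here. The mean after trimming 2% at each end was 200.035 to 200.042 on every array, so the arrays had been scaled by the authors. Symbols came from the platform annotation, and all 38 members had an Entrez ID in the gene table used.

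A pseudocount of 13 (close to the 10th percentile of the table) went in ahead of log2, which understates changes of weak probe sets. Control probe sets (115) and probe sets whose mean log2 value lay under the 40th percentile (6.16, a signal of 58.3) were left out, which kept 9301. Two-sided tests were run with R 4.3.3 and limma 3.58.1, by lmFit and by eBayes with a trend; p-values were adjusted by Benjamini-Hochberg across the kept probe sets, at a threshold of 0.05, and the code was tested on simulated data. For light, the time point was a block (5 residual degrees of freedom), from the labels' circadian times; pools of 1 time correlated with r between -0.05 and 0.30 after removal of group means. For time of day, a 24 h cosine and sine stood beside light (8 degrees of freedom). The 6 times act as replicates, and 12 arrays limit the precision. Nothing in the labels gives replicate pools.

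Members and lists were chosen with earlier results of these data known. By rule, the members named were those called in any test, insig1, slc25a20, osbpl7 and, in each role, the 4 with the smallest light p, the 4 with the largest amplitude and the 3 with the highest signal; the others were named after their values were seen. The spike-in classes divide at a log2 of 10, also set with the values known. Sequences of promoters or proteins were not used here.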

Additional observations from a re-analysis of the deposited data

Results flagged for a closer look

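In 6 of 76 groups (38 probe sets, dark or light) 1 array stood apart from the other 5 of its group by Dixon's test at its 95% value; chance gives about 1 in 20, and groups here also span the times of day. The arrays were the light pool of CT2 for acad8 (275.4, the next being 326) and for osbpl2b (51.91, next 80.6), the light pool of CT14 for fabp6 (46.73, next 78.9), the light pool of CT6 for osbpl7 (115, next 176), the dark pool of CT10 for fabp7a (440.3, next 582), each the lowest, and the dark pool of CT22 for ldlrad3 (201.8, next 140.5), the highest. For fads2 light was higher at all 3 times of subjective day and lower at all 3 of subjective night, the night difference minus the day difference being -1.081 log2; by limma the test of this change gave an adjusted p of 1.00.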

How the results depend on the processing

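With 2 members called for light, the number stayed at 2 with pseudocounts of 1 or 50, with no filter on low values and with a filter on the mean signal. It was 1 (osbpl7) with quantile normalization and 1 (osbpl7) without the time-point block, and 0 with spike-in class, with spike-in level and within the higher class; it ran from 0 to 2 when 1 time point was left out. The 1 call for time of day, acsl4a, became 0 with quantile normalization, from the dark or the light arrays alone, and with spike-in class, and ran from 0 to 1 without 1 time point, the call without CT14 being cpt1ab. Both tests of a light response that varies with time stayed at 0 members under each alternative run. The difference of slc25a20 turned to 0.1117 with spike-in class and to 0.1417 within the higher class, which holds 1 dark array. The cause was not tested. Over all probe sets the light calls were 215, 127 without the block, 3 with class, 8 with level, 0 within the higher class (433 at an unadjusted p under 0.05, limma), and between 71 (without CT10) and 351 (without CT22) with 1 time point left out. Calls for time of day were 184, between 48 (without CT10) and 121 (without CT14) with 1 time point left out, 20 from the dark and 23 from the light arrays alone. Of the 37 light differences, 30 kept their sign with quantile normalization and 22 with spike-in class. Standard errors of the light difference were widest for insig2 (0.303), insig1 (0.258) and osbpl7 (0.250).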
